A study of Mus musculus with 8 samples.

Results

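The COPII coat is the protein shell that buds transport vesicles from the endoplasmic reticulum (ER), and its genes were read here as a group of 10: Sar1a, Sar1b, Sec23a, Sec23b, Sec24a, Sec24b, Sec24c, Sec24d, Sec13 and Sec31a. They were picked by name out of the 26894 gene symbols on the array. The naming rule used no measured values, but the group was proposed with earlier results of these data known. The array carries 22 probes for them, all 22 of which were kept, and 21 of which were well above background on every one of the 8 arrays. The samples were dentate gyrus RNA of male C57BL/6 mice aged 8 to 9 weeks, measured on 8 one-colour Agilent arrays, with 150 ng of total RNA labelled per array and 2 arrays in each of 4 groups. The study compared mice lacking Derlin-1 or Derlin-2, membrane proteins of ER quality control, in the brain with their controls. Derlin-1 control mice carried floxed Derl1 on both alleles (Derl1 flox/flox) and Derlin-2 control mice floxed Derl2 (Derl2 flox/flox), and the KO mice of each line carried Cre recombinase under the nestin promoter in addition.

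Nestin-Cre acts in the neural lineage, so cells of other origin in the tissue, such as microglia and endothelium, keep the gene. The genotype field of the KO samples gives only the floxed genotype, and the groups rest on the sample titles. The labels do not say whether 1 array is 1 animal, so the p-values measure only the spread between these samples, which may be technical. Each line lay on a slide of its own, and slide and line cannot be told apart. The share of the 56605 probes with a signal well above background was 67.6% to 70.8% per array, and 0 spots were saturated. All 6 granule neuron markers, Prox1 among them, were well above background on 8 arrays, and so were the markers of the other 7 cell types looked at, among them GABAergic interneurons and oligodendrocytes. In bulk tissue, fewer cells of a type and less RNA per cell cannot be told apart.

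COPII assembly starts when the exchange factor Sec12, the product of Preb, loads GTP onto the small GTPase Sar1, which then inserts into the ER membrane. Sar1 recruits the inner coat of Sec23, its GTPase-activating protein, and Sec24, which binds the sorting signals of cargo proteins, and the outer cage of Sec13 and Sec31 bends the membrane into a bud. Proteins that fold correctly leave the ER by this route, whereas misfolded proteins are held back by chaperones or passed to the degradation pathway in which the Derlins act.

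RefSeq promoter windows on the mouse assembly GRCm38.p6, each of 300 bases from 250 before to 50 after an annotated start, were found for 10 of the 10 genes, in 12 windows. They were searched on both strands for the motifs of ER stress factors. The ERSE (CCAAT, 9 bases, CCACG) was in 0 of 10 genes, against 0.137% of the 27025 genes with a window. The ERSE-II (ATTGG, 1 base, CCACG) was in 0 of 10 as well, against 0.0444% of all genes, and the CRE (TGACGTCA) in 0 of 10 against 2.03%. The UPRE (TGACGTGG), which contains the reverse complement of CCACG, was in 2 of 10, Sec23a and Sec24d, against 0.714% of all genes. CCACG alone was in 7 of 10 against 35.5%. Among the genes that act around the coat, listed further on, the share with a UPRE varied by list. It was 26.3% of the COPI genes with a window and 11.1% of the tethers and of the regulators. The UPRE was in 0 of the 19 cargo receptor genes and 0 of the 12 ER chaperone genes with a window. CCACG was in 63.2% to 91.7% of the genes of each list. The COPII windows were also richer in G and C than all windows, with medians of 56.5% and 52.7%. Of the 12 ER chaperone genes with a window, 7 held an ERSE, among them Hspa5, which encodes the chaperone BiP. A match is a description of letters in the window and not a bound site. The 2 COPII windows with a UPRE and the Hspa5 window are shown from 150 bases before the start to 30 after it, 5′ to 3′ on the strand of the gene, with the UPRE or the ERSE in capitals.
Sec23a, chr12:59011988-59012167, minus strand: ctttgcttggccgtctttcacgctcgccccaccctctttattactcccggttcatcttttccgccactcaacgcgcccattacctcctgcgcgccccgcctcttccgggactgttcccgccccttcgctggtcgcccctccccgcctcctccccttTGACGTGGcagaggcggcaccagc
Sec24d, chr3:123267346-123267525, plus strand: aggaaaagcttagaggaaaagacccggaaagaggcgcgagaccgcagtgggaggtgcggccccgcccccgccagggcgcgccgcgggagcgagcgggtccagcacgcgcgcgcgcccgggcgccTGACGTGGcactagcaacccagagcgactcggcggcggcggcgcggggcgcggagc
Hspa5, chr2:34771940-34772119, plus strand: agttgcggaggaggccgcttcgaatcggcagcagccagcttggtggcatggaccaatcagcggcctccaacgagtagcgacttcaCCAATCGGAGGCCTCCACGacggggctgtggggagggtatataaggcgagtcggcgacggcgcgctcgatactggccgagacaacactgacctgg

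None of the 10 COPII genes passed the threshold in either line. By limma with Benjamini-Hochberg adjustment over all probes, 0 of 22 COPII probes reached an adjusted p below 0.05 in the Derlin-1 line, where 0% of all probes did, 0 of 22 in the Derlin-2 line against 0.0452% of all probes, and 0 of 22 in the difference between the lines against 0.00754%. Without adjustment, 0 of the 10 genes had a p below 0.05 for Derlin-1 and 0 of 10 for Derlin-2, while 4.25% and 4.64% of all genes did. The differences between KO and control, taken at each gene's brightest probe, ran from -0.17 to 0.13 log2 for Derlin-1 and from -0.15 to 0.12 log2 for Derlin-2. All 10 of the 95% intervals contained 0 in both lines, and the interval bound farthest from 0 was -0.52 log2, a 1.43-fold change. At the brightest probes the intervals therefore leave room for changes up to that size. Intervals of dimmer probes reached farther, up to 1.17 log2 at a Sec24a probe (A_52_P409711) in the Derlin-2 line.

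**Figure D1:**
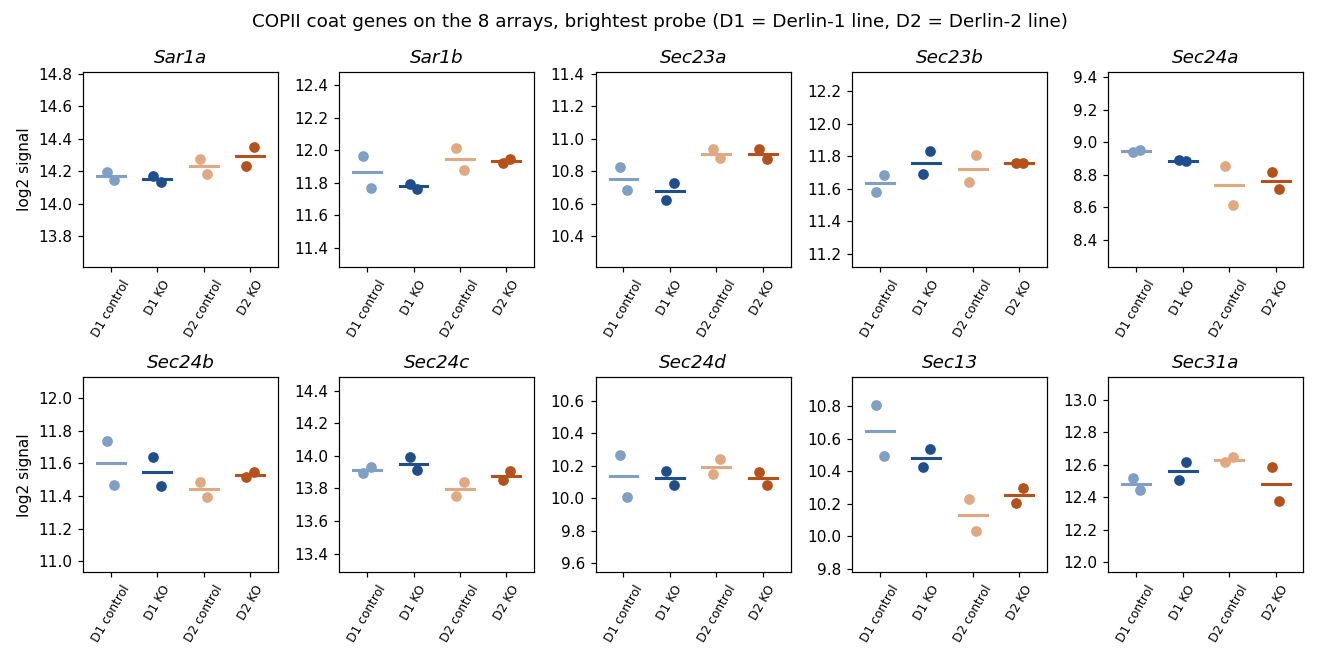
Log2 signal of the brightest probe of each COPII gene (vertical axis, 1.2 log2 units in every panel) on the 8 arrays, grouped along the horizontal axis. Points are arrays and bars are group means of 2 arrays; KO and control points of a line overlap in 8 of 10 genes in the Derlin-1 line and in 7 of 10 in the Derlin-2 line.

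Levels are given below as quantile-normalized log2 signals, which are not comparable between probes, and differences as KO minus control in log2 units. Sar1a and Sar1b encode the GTPases that start coat assembly. Sar1a read 14.20 and 14.14 in the Derlin-1 controls, 14.17 and 14.13 in the Derlin-1 KO, 14.27 and 14.19 in the Derlin-2 controls and 14.23 and 14.35 in the Derlin-2 KO. The groups overlapped in both lines, and the differences were -0.017 (SE 0.099) and 0.062 (SE 0.099). Sar1b read 11.96 and 11.77 in the Derlin-1 controls and 11.79 and 11.76 in the Derlin-1 KO, and then 12.02 and 11.88 in the Derlin-2 controls and 11.92 and 11.95 in the Derlin-2 KO. In both lines 1 of the control arrays held the highest value, and the groups overlapped. The differences of Sar1b were -0.090 (SE 0.11) and -0.014 (SE 0.11).

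Sec23a and Sec23b encode the paralogues of the GTPase-activating subunit of the inner coat. Sec23a read 10.82 and 10.69 against 10.62 and 10.73 (control, then KO) in the Derlin-1 line and 10.93 and 10.88 against 10.94 and 10.87 in the Derlin-2 line. Control and KO overlapped in both lines, and all 4 arrays of the Derlin-2 line were above all 4 of the Derlin-1 line. The differences between KO and control were -0.079 (SE 0.10) and -0.0029 (SE 0.10). Sec23b read 11.58 and 11.69 against 11.69 and 11.83 in the Derlin-1 line and 11.64 and 11.81 against 11.76 and 11.76 in the Derlin-2 line. Both Derlin-1 KO arrays were above both controls by a margin smaller than the second decimal, and the Derlin-2 groups overlapped. The Derlin-1 difference was 0.13 (95% interval -0.15 to 0.40, adjusted p = 0.99995 by limma) and fell to 0.056 without KO replicate 2, and the Derlin-2 difference was 0.034 (95% interval -0.24 to 0.31).

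Sec24a to Sec24d encode the cargo adaptors. Sec24a read 8.94 and 8.95 against 8.89 and 8.88 in the Derlin-1 line and 8.86 and 8.61 against 8.81 and 8.71 in the Derlin-2 line. Both Derlin-1 KO arrays lay below both controls, with a difference of -0.060 (95% interval -0.34 to 0.22), and the Derlin-2 groups overlapped, with a difference of 0.027 (95% interval -0.25 to 0.31). Sec24b read 11.74 and 11.47 against 11.64 and 11.46 in the Derlin-1 line and 11.48 and 11.40 against 11.51 and 11.55 in the Derlin-2 line. Its differences were -0.054 (SE 0.13), with overlapping arrays, and 0.091 (SE 0.13), with both KO arrays above both controls. Sec24c read 13.89 and 13.93 against 13.99 and 13.91, and 13.75 and 13.84 against 13.85 and 13.91. Only the Derlin-2 groups of Sec24c were apart, with both KO arrays higher, and the differences were 0.039 (SE 0.095) and 0.084 (SE 0.095). Sec24d read 10.26 and 10.01 against 10.17 and 10.08, and 10.15 and 10.24 against 10.16 and 10.08. The Sec24d groups overlapped in both lines, with differences of -0.012 (SE 0.12) and -0.072 (SE 0.12).

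Sec13 and Sec31a form the outer cage, and Sec13 is also a subunit of the nuclear pore and of a complex that regulates mTORC1. Sec13 read 10.81 and 10.50 against 10.43 and 10.54 in the Derlin-1 line and 10.23 and 10.03 against 10.20 and 10.30 in the Derlin-2 line. The groups overlapped within each line, and every Derlin-1 array was above every Derlin-2 array. The differences of Sec13 were -0.17 (95% interval -0.52 to 0.18) in the Derlin-1 line and 0.12 (95% interval -0.23 to 0.47) in the other. Single controls decided their size, since the first was -0.013 without Derlin-1 control replicate 1 and -0.32 without control replicate 2, and the second was 0.22 without Derlin-2 control replicate 1 and 0.019 without control replicate 2. Sec31a read 12.52 and 12.44 against 12.50 and 12.61, and 12.62 and 12.64 against 12.59 and 12.38. Both Derlin-2 KO arrays were below both controls, with a difference of -0.15 (95% interval -0.42 to 0.13), and the Derlin-1 groups overlapped, with a difference of 0.078 (95% interval -0.20 to 0.35). Between the lines, the KO effects of the 10 genes differed by -0.29 (Sec13) to 0.23 (Sec31a), with a lowest adjusted p of 0.917 by limma.

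**Figure D2:**
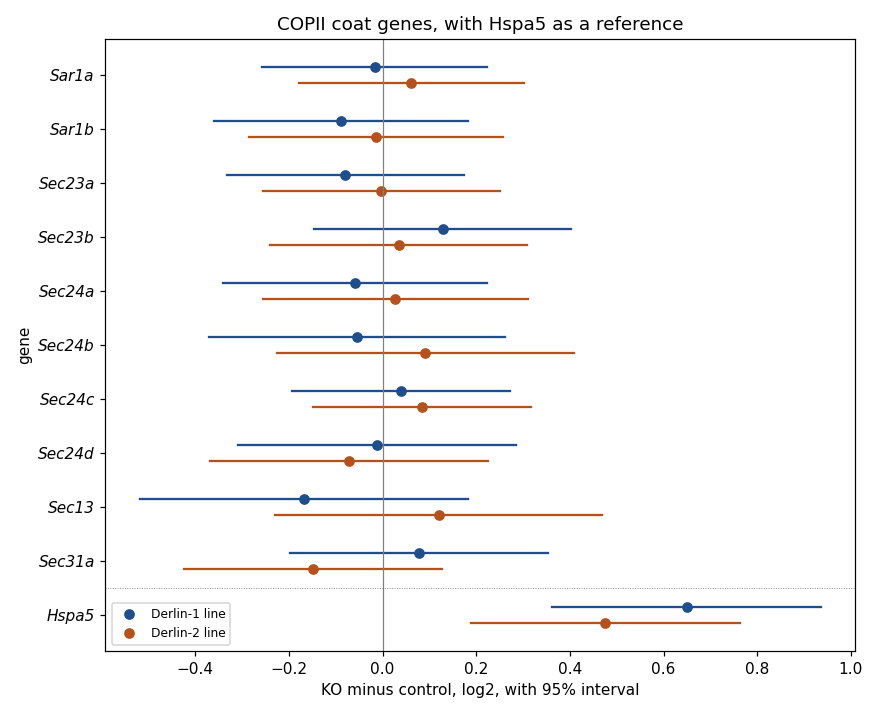
KO minus control in log2 units (horizontal axis) for the brightest probe of each COPII gene and of Hspa5 as a reference, in the Derlin-1 line (blue) and the Derlin-2 line (orange). Points are estimates from limma on 8 arrays and lines are 95% intervals; the intervals of all 10 COPII genes cross 0 and those of Hspa5, 0.36 to 0.94 and 0.19 to 0.76, do not.

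The median difference of the 10 genes was -0.036 log2 in the Derlin-1 line, beside -0.020 over all genes, and 0.031 log2 in the Derlin-2 line, beside 0.0079 over all genes. Of the 10 genes, 3 were on the higher side in the Derlin-1 KO and 6 in the Derlin-2 KO, where 44.05% and 52.3% of all genes were. Scaling to the 75th percentile put 4 and 8 of them on the higher side, and 53.6% and 55.7% of all genes. Both KO arrays were above both controls in 1 gene in the Derlin-1 line, where 16.2% of all genes were so placed, and below them in 1 gene, against 17.9%. In the Derlin-2 line 2 genes had both KO arrays above, against 17.9% of all genes, and 1 had both below, against 14.6%. These counts lie near the shares over all genes. KO arrays on opposite sides of the controls in the 2 lines were seen at 0 of the 22 COPII probes and at 6.19% of all probes, at which rate a count of 0 is no result about them.

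The 12 dimmer probes spread more widely. Their differences reached 0.42 log2 in Derlin-1 KO and 0.58 log2 in Derlin-2 KO arrays, both at probes for Sec24a. The probe with the Derlin-1 value (A_51_P174743) read 5.81 and 5.86 in the Derlin-1 controls and 6.39 and 6.12 in the KO, and 5.66 and 5.10 in the Derlin-2 controls and 5.20 and 4.75 in the KO. The KO arrays were the higher ones in the Derlin-1 line, and the groups overlapped in the Derlin-2 line. The difference between the lines at this probe was 0.83 (95% interval 0.0033 to 1.65, adjusted p = 0.851 by limma), the only one of the 22 probes with an unadjusted p below 0.05 in any contrast. The brightest Sec24a probe gave -0.087 (95% interval -0.49 to 0.31) for the same contrast, so the Sec24a probes disagreed. The probe with the Derlin-2 value (A_52_P409711) was well above background on 6 of the 8 arrays and missed on 1 Derlin-2 control and 1 Derlin-2 KO array, and its adjusted p was 0.921 by limma.

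**Figure D3:**
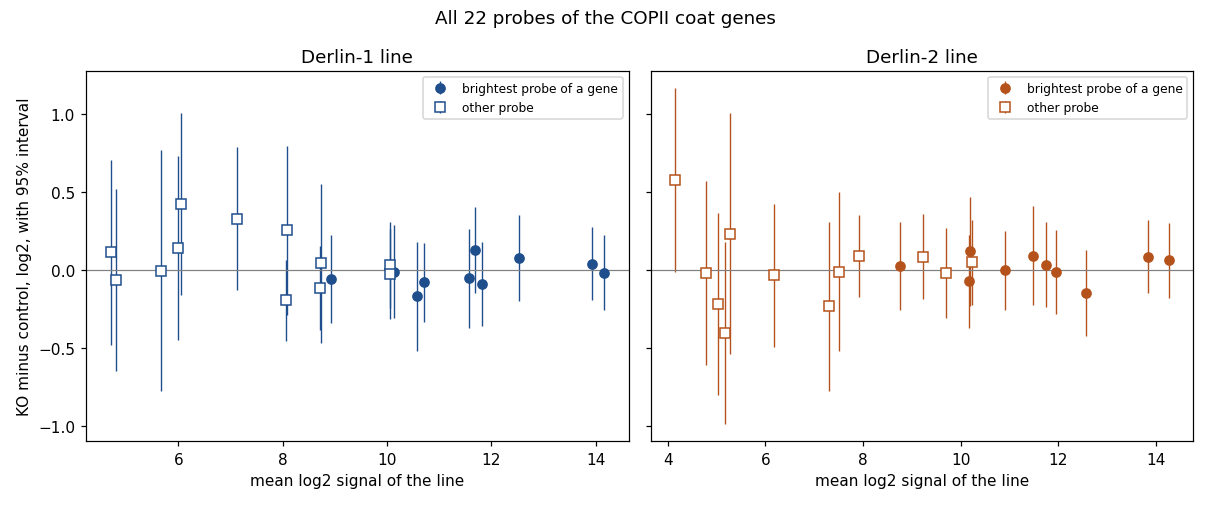
KO minus control in log2 units with 95% intervals (vertical axis) against the mean log2 signal of the line (horizontal axis) for all 22 COPII probes. Filled circles are the brightest probe of each gene and open squares the others; the intervals are wider at low signal, and the widest differences, 0.42 and 0.58, are at dim Sec24a probes.

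The 4 arrays of one line did not overlap with the 4 of the other for 3 of the 10 brightest probes, Sec23a, Sec24a and Sec13, while 34.9% of all genes were so placed. Over all 22 probes the count was 11, against 35.2% of all probes. The means of the lines were 8.73 and 7.50 log2 at the dimmer Sec23b probe and 5.99 and 4.78 log2 at the dimmest Sec31a probe, Derlin-1 line first. These are differences between slides as much as between lines and were not tested.

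The genes that act around the coat were read from 5 lists, and 0 genes of any list passed the adjusted threshold in either line. Of 10 regulators and exit site organisers, such as the coat exchange factor Preb, the median difference was -0.036 with Derlin-1 deleted and 0.054 with Derlin-2 deleted. The extremes were Mia2 (0.11) and the kinase Csnk1d (-0.22) in the Derlin-1 line, and Sec16b (0.15) and the collagen export receptor Mia3 (-0.097) in the Derlin-2 line. Of 22 cargo receptors the medians were -0.025 and -0.027. Cnih3 (0.13) and Ergic1 (-0.35) were the extremes in the Derlin-1 line, and Ergic2 (0.16) and Ergic3 (-0.33) in the Derlin-2 line. Ergic1 and Ergic3, membrane proteins of the ER-Golgi intermediate compartment, had unadjusted p-values below 0.05 in 1 line each, with limma adjusted p of 0.99995 and 0.848. With 1 of 22 receptors in each line, against 4.25% and 4.64% of all genes, these are no result about the list.

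Of the 22 tethers, SNAREs and Rabs that receive the vesicles, 14 were on the higher side in the Derlin-1 KO and 18 in the Derlin-2 KO (44.05% and 52.3% of all genes). Their medians were 0.0076 and 0.037. Under scaling to the 75th percentile 13 and 21 were on the higher side, where 53.6% and 55.7% of all genes were. The extremes were the SNAREs Stx5a (0.13) and Gosr1 (-0.20) in the Derlin-1 line, and Rab2a (0.18) and the syntaxin partner Scfd1 (-0.059) in the Derlin-2 line. Of the 20 measured genes of the COPI coat and of retrieval to the ER, out of 21 listed, the medians were 0.030 and 0.0033. The KDEL receptor Kdelr2 (0.31) and the coat subunit Copz2 (-0.33) were the extremes in the Derlin-1 line, and Arfgap3 (0.28), a GTPase-activating protein of Arf1, and Copz2 (-0.29) in the Derlin-2 line. Arfgap3 also had an unadjusted p below 0.05 in the Derlin-2 line (limma adjusted p = 0.901), as 4.64% of all genes did.

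The 14 ER chaperones and folding enzymes had the highest median of the 5 lists in each line. All 14 had both KO arrays above both controls in the Derlin-1 line, against 16.2% of all genes, and 6 did in the Derlin-2 line, against 17.9%. The median differences were 0.34 and 0.15, and 8 and 5 of them had an unadjusted p below 0.05, against 4.25% and 4.64% of all genes. Hspa5 read 13.97 and 13.83 in the Derlin-1 controls and 14.58 and 14.52 in the Derlin-1 KO, and 13.79 and 14.02 in the Derlin-2 controls and 14.36 and 14.41 in the Derlin-2 KO. The KO arrays were above the controls in both lines, by 0.65 (SE 0.12) and 0.48 (SE 0.12), with limma adjusted p of 0.99995 and 0.591. The extremes of the list were Sdf2l1 (0.69) and Dnajc3 (0.13) in the Derlin-1 line and Hspa5 (0.48) and Dnajb9 (-0.0023) in the Derlin-2 line. Whether the COPII genes moved less than the chaperones was not tested.

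**Figure D4:**
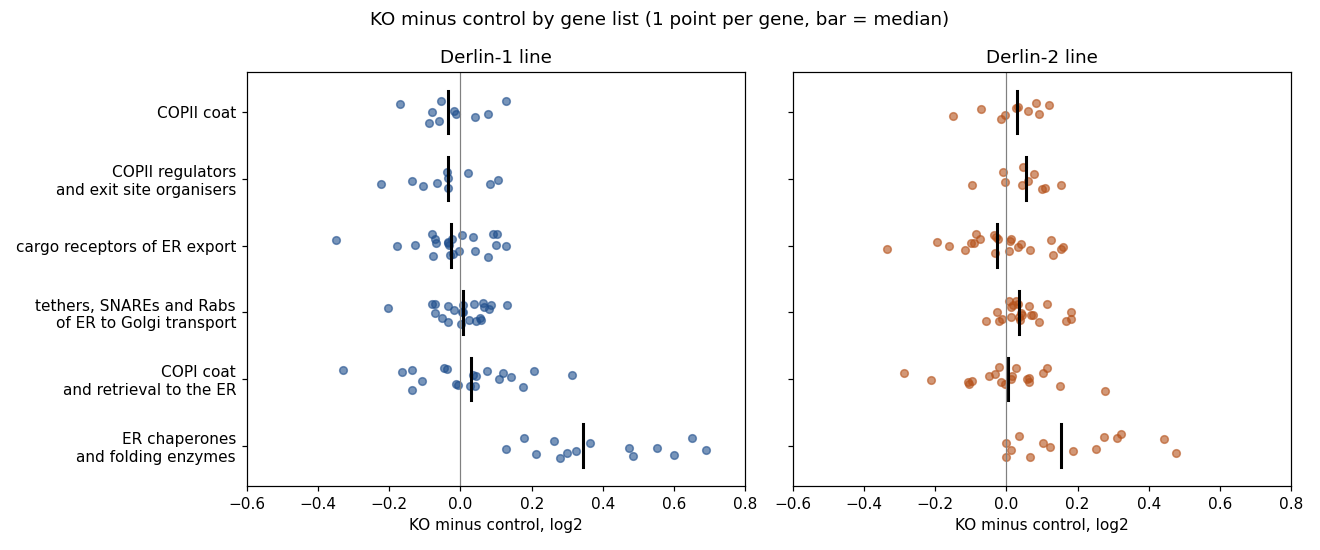
KO minus control in log2 units (horizontal axis) for the genes of each list (vertical axis), 1 point per gene at its brightest probe, with the list's median as a bar, in the Derlin-1 line (left) and the Derlin-2 line (right). The COPII medians are -0.036 and 0.031 and those of the ER chaperones 0.34 and 0.15.

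The deleted genes were read as a check of the labels. Derl1 read 10.86 and 10.76 in the Derlin-1 controls and 10.56 and 10.65 in the Derlin-1 KO, a difference of -0.20 (SE 0.10, adjusted p = 0.99995 by limma). Derl2 read 11.36 and 11.22 in the Derlin-2 controls and 10.63 and 10.65 in the Derlin-2 KO, a difference of -0.65 (SE 0.097, adjusted p = 0.257 by limma). Both KO arrays were below both controls in each case, and whether the probes lie inside the deleted part of the genes was not determined.

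Marker sums of some cell types had both KO arrays on one side of both controls. Of all genes, 16.2% lay above and 17.9% below in this way in the Derlin-1 line, and 17.9% and 14.6% in the Derlin-2 line. Whether the sums depart from these shares was not tested. In the Derlin-1 line the summed signal of the 5 GABAergic interneuron markers was 16.28 to 16.35 log2 in the controls and 16.45 to 16.63 in the KO, and in the Derlin-2 line it was 16.79 to 16.85 in the controls and 16.57 to 16.61 in the KO. The KO arrays were thus above the controls in one line and below them in the other, and of the 5 markers 4 were higher in Derlin-1 KO and 4 lower in Derlin-2 KO. Sst, the interneuron peptide somatostatin, named after its values were seen, differed by 0.38 and -0.33, with limma adjusted p of 0.99995 and 0.843. Microglia markers summed to 14.67 to 14.72 in the Derlin-1 controls and 14.47 to 14.55 in the KO, with all 5 lower, and overlapped in the Derlin-2 line. Choroid plexus markers summed to 10.42 to 10.58 in the Derlin-1 controls and 10.63 to 10.69 in the KO, with 4 of 5 higher. They overlapped in the Derlin-2 line, at 10.86 to 12.04 in controls and 10.99 to 12.16 in KO. Astrocyte sums lay above the controls in the Derlin-1 KO, though only 2 of the 5 markers were higher and 3 were lower. Endothelial sums lay above them in the KO of both lines, with 2 of 5 markers higher in Derlin-1 KO and 4 of 5 in Derlin-2 KO. Granule neuron sums lay below them in the Derlin-2 KO, with 3 of 6 markers lower and 3 higher. The other sums overlapped. A sum is set mostly by its brightest markers. The part of these differences in the chaperone and COPII values was not tested.

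The profiles of the COPII genes over the arrays ran both with and against each other. With each line's mean removed, the correlation of a gene with the mean of the other 9 over the 8 arrays ran from -0.71 (Sec23b) to 0.82 (Sar1b). The 5 genes among 18046 whose profile was most like the members' mean were Klf8 (Pearson r = 0.99), Zc3h7b (0.98), 4930515G16Rik (0.97), Exosc7 (0.97) and Rcn2 (0.97). The members' mean spanned only -0.045 to 0.068 log2 around its line mean, and points of a line share their slide, so these correlations are descriptions over 8 arrays.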

How the data were processed

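Scanner files deposited by the authors hold, per the file headers, the intensity of each spot after background subtraction and detrending by Agilent Feature Extraction (version 10.7.1.1 in the submitters' processing notes). The deposited tables also hold log2 values, normalized by the authors, which served as an alternative within each line and whose columns could be matched to groups but not to single samples, and the authors' own fold changes, which were not used. Control spots and spots flagged as outliers were left out. Signals below 1 were set to 1, log2 was taken, all 8 arrays were brought to one distribution by quantile normalization, and repeated spots were averaged. Of 56605 probes, 40001 were kept, those well above background on both arrays of at least 1 group, for 19922 genes, and a gene is given by its brightest probe. Gene names are those of the array files.

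The fit used limma 3.58.1 under R 4.3.3, in 1 model of 4 group means with 4 residual degrees of freedom and 2.08 prior ones, two-sided, with Benjamini-Hochberg adjustment over all probes tested and a threshold of 0.05. The script was tested on simulated data. With 2 arrays on each side, the smallest two-sided p of an exact test is 0.333, and the number of arrays limits the precision. The members and lists were chosen with earlier results of these data known. The genes named are all members, the highest and lowest gene of each list in each line, Derl1, Derl2 and Hspa5, and the 5 genes most like the members. The alternatives were other scalings, normexp on the median spot and background signals, the deposited values, other filters and probe rules, a replicate block, single-line fits, a trended prior and leaving out each array.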

Additional observations from a re-analysis of the deposited data

Results flagged for a closer look

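The COPII probes, the genes of the 5 lists and the deleted genes were looked at for KO effects in opposite directions, with both KO arrays on one side of both controls in one line and on the other side in the other line. The difference of the effects, Derlin-1 minus Derlin-2, was -0.50 log2 for Ergic1 (adjusted p = 0.846 by limma), -0.28 for Csnk1d (adjusted p = 0.886) and 0.18 for Mia3 (adjusted p = 0.929), none of which passed the threshold. It was -0.24 for Klhl12 (adjusted p = 0.896), -0.20 for Arf5 (adjusted p = 0.931) and -0.20 for Kdelr1 (adjusted p = 0.913), which are named here only because they met this description. All of them are limma values, and 6.19% of all probes were so placed. The 5 lists held 10, 22, 22, 20 and 14 measured genes, so a few genes so placed are no result about the lists. The deleted genes themselves met the same description, with -0.32 for Derl1 (adjusted p = 0.853) and 0.71 for Derl2 (adjusted p = 0.531).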

How the results depend on the processing

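No COPII gene passed the threshold under any of the alternatives run, in either line or in the difference, and the lowest adjusted p among them was 0.648. With a replicate block within each line, which cannot move a difference in this balanced design (medians -0.036 and 0.031), 0 COPII genes passed. Same-numbered arrays correlated at 0.25 and -0.098 in their deviations, over 2 pairs a line, so the numbers were not taken as pairs. Of the 300 recomputed member values that a setting could move, 29 changed sign; another 140 are the same differences by construction. Under scaling to the 75th percentile these were Sar1a in the Derlin-1 line (0.033), and Sec23a (0.016) and Sar1b (0.0046) in the Derlin-2 line. With the deposited values they were Sar1a (0.022), and Sec23a (0.018) and Sar1b (0.0063) in the Derlin-2 line. Sec23a in the Derlin-2 line was 0.0019 with normexp and 0.0050 with outlier spots kept. With the mean of all probes of a gene, Sec24a was 0.12 for Derlin-1 and 0.071 in the difference, and Sec23a was 0.11 and Sec24b -0.027 in the Derlin-2 line. The cause was not tested.

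The Derlin-2 median turned slightly negative without Derlin-2 control replicate 2. Leaving out 1 array moved the Derlin-1 median between -0.097 (without control replicate 2) and 0.015 (without control replicate 1). In the Derlin-1 line it moved Sec24b between -0.19 and 0.079, Sec24c between -0.00071 and 0.080, Sec24d between -0.14 and 0.11, Sar1a between -0.043 and 0.0085, Sar1b between -0.19 and 0.0070, Sec13 between -0.32 and -0.013, Sec23a between -0.15 and -0.011, Sec23b between 0.056 and 0.20 and Sec31a between 0.022 and 0.13. In the Derlin-2 line it moved Sec23a between -0.036 and 0.030, Sec23b between -0.049 and 0.12, Sec24a between -0.093 and 0.15, Sar1b between -0.082 and 0.054, Sec13 between 0.019 and 0.22, Sec31a between -0.25 and -0.045, Sar1a between 0.0026 and 0.12, Sec24b between 0.048 and 0.14, Sec24c between 0.043 and 0.13 and Sec24d between -0.12 and -0.025. The order of the genes by difference changed too: without Derlin-1 control replicate 1, Sec24a (-0.066) was the lowest and Sec31a (0.12) the highest of the Derlin-1 line. In the difference it moved Sec24a between -0.21 and 0.034, Sec24d between -0.067 and 0.19 and Sar1b between -0.17 and 0.021. The count of all probes past the threshold in the Derlin-2 line, 18 as reported, was 0 with the deposited values, the replicate block or the single-line fit, 2 with normexp, the trended prior or probes well above background on 8 arrays, 29 with no filter, and 4 to 55 when 1 array was left out, with 55 without Derlin-2 control replicate 1. That in the difference, 3 as reported, was 0 to 21 when 1 array was left out. The ER chaperone median of the Derlin-1 line was 0.40 under scaling to the 75th percentile.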
